A study of Oryza sativa with 12 samples.

Results

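Lipid transfer proteins of rice were followed in 12 RNA-seq libraries. The genes were the 66 loci, of 50708 in the deposited table, whose description contains "lipid transfer protein" or "lipid-transfer protein", with 1 row kept for each gene name. The libraries came from XN0437T, a heat-tolerant line, and XN0437S, the heat-sensitive line that is nearly isogenic to it. Each line was sampled at the filling stage under high night temperature stress and in control, with 3 libraries in each of the 4 groups. The labels give the tissue only as rice, and name neither the temperature, the length of the stress nor the organ. The sources do not say whether the replicates of a group were separate plants. The p-values therefore measure library-to-library spread, part of which may be technical.

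Non-specific lipid transfer proteins are small secreted proteins with a conserved set of cysteines that folds into a cavity for fatty acyl chains, and in vitro they carry lipids between membranes. In plants they are linked to cuticle, suberin and pollen wall formation and to defence, and in cereal grains some are abundant in the aleurone layer around the endosperm. A second branch is tied to the plasma membrane by a glycosylphosphatidylinositol (GPI) anchor and in Arabidopsis takes part in the export of cuticular wax. Glycolipid transfer proteins and proteins with a StAR-related domain share the name but belong to other, intracellular families.

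By the wording of their descriptions, 25 genes carried a number or letter of the secreted family, 7 were GPI-anchored, 7 were called lipid transfer protein-like, 8 were of type 2P or given as probable, 8 had no number, 5 were called DIR1, 3 were pEARLI1-like, 2 were glycolipid transfer proteins and 1 was StAR-related. Of the 66 genes, 53 passed the filter on low counts (23 of the numbered or lettered genes) and were tested. Another 7 had no count in any library, among them LOC_Os11g37280, described as C6 and known in rice from the tapetum of the anther. The remaining 6 reached at most 42 counts in a library. Library totals ran between 85496090 and 100353570 counts, and levels below are CPM, counts per 1e6 of a library's total, scaled with TMM factors, given as mean ± SD of 3 libraries.

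The pool of lipid transfer protein transcripts was led by few genes. Per length, LOC_Os03g02050 (lipid-transfer protein 2) had the highest mean over the 12 libraries with 886 FPKM, followed by LOC_Os11g02389 (lipid-transfer protein 1, partial) with 827 FPKM and LOC_Os12g02320 (lipid-transfer protein 1) with 457 FPKM. The order of the first pair differed between conditions. LOC_Os03g02050 led under stress, with 1161 FPKM against 779 FPKM for LOC_Os11g02389 in tolerant stress and 1224 against 851 FPKM in sensitive stress. LOC_Os11g02389 led in control, with 856 FPKM against 599 FPKM for LOC_Os03g02050 in tolerant control and 822 against 559 FPKM in sensitive control. LOC_Os11g02369 (lipid-transfer protein 2A) averaged 156 FPKM and LOC_Os11g24070 (lipid-transfer protein 1-like) 131 FPKM. At the other end, 17 of the tested genes averaged less than 1 CPM. Summed over all members, the level was 2743 ± 73.2 CPM in tolerant stress and 2739 ± 51.1 CPM in tolerant control. In the sensitive line it was 2940 ± 69.6 CPM in stress and 2943 ± 54.7 CPM in control. Its make-up differed: LOC_Os03g02050 supplied 39.5% of the sum in tolerant stress against 25.7% in tolerant control, and 38.9% in sensitive stress against 23.7% in sensitive control. Without that gene the sum was 1659 ± 47.7 CPM in tolerant stress against 2035 ± 44.6 CPM in tolerant control, and 1796 ± 45.1 CPM in sensitive stress against 2246 ± 34.8 CPM in sensitive control. As a plain share of all counts, with no TMM factor, the members held 0.313% in tolerant stress, 0.251% in tolerant control, 0.333% in sensitive stress and 0.2495% in sensitive control.

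**Figure D1:**
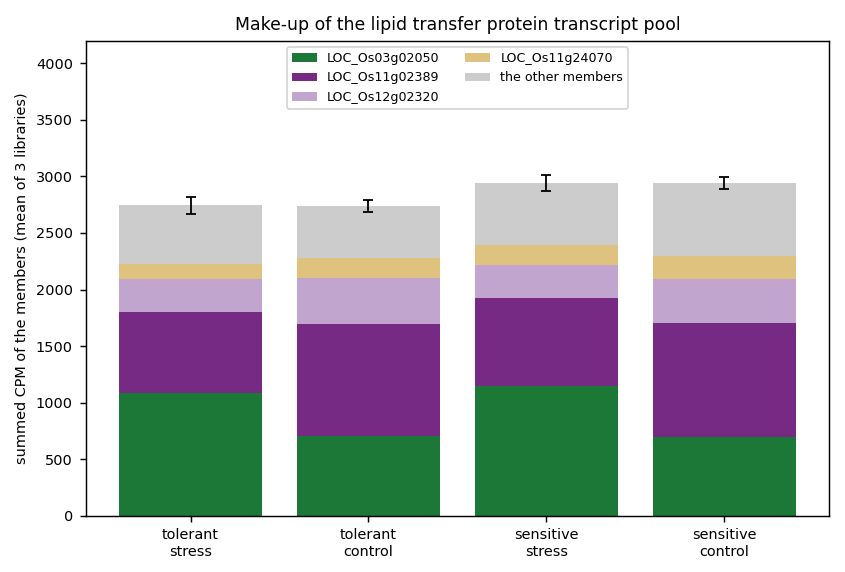
Stacked bars of the summed CPM of all lipid transfer protein genes in each group (mean of 3 libraries; the error bar is the SD of the sum), split into the 4 genes with the highest mean CPM and the rest. The bars are close to equal in height within a line, while the green LOC_Os03g02050 segment is 1085 and 1144 CPM in the stress groups and 704 and 697 CPM in the control groups.

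Night heat stress went with changes in both directions among these genes. In the tolerant line 16 of the 53 tested genes rose, 11 fell and 26 did not pass the test. The test was edgeR's quasi-likelihood test, with p-values of the 33281 tested loci adjusted after Benjamini and Hochberg and a threshold of 0.05. The calls are 50.9% of the members, where 33.2% of all tested loci were called (16.7% up and 16.6% down). In the sensitive line 14 rose, 17 fell and 22 did not pass, or 58.5% of the members, where 32.1% of all tested loci were called (16.3% up and 15.9% down). The median log2 fold change of the members was 0.18 in the tolerant and -0.22 in the sensitive line, beside 0.05 and 0.04 over all tested loci. By fitted values of 2-fold or more, 12 rose and 4 fell in the tolerant line (8.97% and 6.29% of all tested loci), with 9 up and 8 down among sensitive-line calls (8.48% and 5.51%). With genes that have a group at 0 left out, these were 10 up and 4 down in the tolerant line and 8 up and 7 down in the sensitive line. The 2 left out of the tolerant rises, LOC_Os04g55170 and LOC_Os10g36100, have no lower bound of 2-fold. LOC_Os06g49770, whose direction is uncertain, stays among the rises of both lines, also at 2-fold. With the rows of its name summed it was at -0.10 in the tolerant and -0.07 in the sensitive line. When rows were summed by name, 15 members rose in the tolerant and 13 in the sensitive line. Of the 53 genes, 13 rose in both lines, 11 fell in both, and 2 rose in the tolerant and fell in the sensitive line. These 2 were LOC_Os11g02369, whose sensitive-line value was 0.015 with library totals alone, and LOC_Os10g36100, which had a group at 0 in each line. The share of all tested loci with such joint calls was not computed.

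These counts depend on the scaling, because TMM factors were 1.11 to 1.18 in stress libraries and 0.838 to 0.981 in control libraries. Scaled by library totals alone, the median of all tested loci lay at 0.37 in the tolerant and 0.46 in the sensitive line on the log2 scale, and the members' split became 21 up and 3 down in the tolerant line and 16 up and 8 down in the sensitive line. Over all called loci, the share that was up was 50.2% with TMM and 76.8% with library totals in the tolerant line, and 50.6% and 83.6% in the sensitive line. The changes given below are relative to the median gene.

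**Figure D2:**
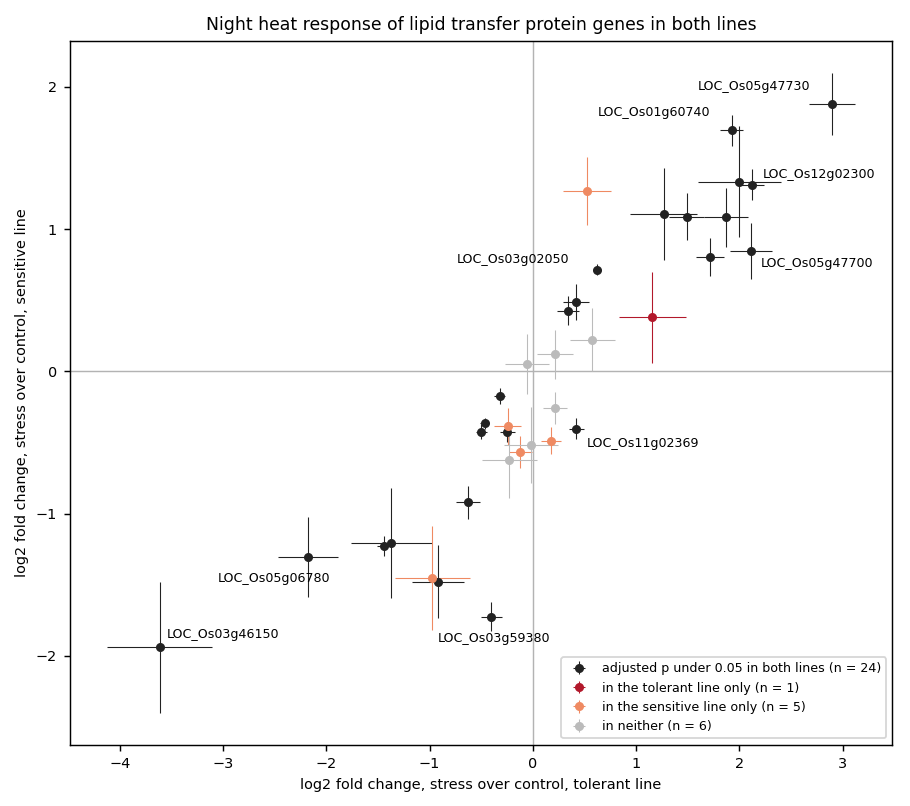
Log2 fold change of stress over control in the tolerant line (horizontal axis) and in the sensitive line (vertical axis) for the 36 lipid transfer protein genes with a mean of at least 1 CPM; bars are standard errors, and the colour gives the lines in which the gene passed an adjusted p of 0.05. The 24 genes that passed in both lines lie to the upper right and lower left of the zero lines except LOC_Os11g02369, whose sensitive-line value of -0.40 becomes 0.02 with library totals alone; LOC_Os05g40010, LOC_Os07g07930, LOC_Os11g02389 and LOC_Os11g24070, near the centre, also change sign under such scaling in at least 1 line.

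Among the secreted, numbered or lettered genes, 9 of 23 were up and 6 down in the tolerant line, with 7 up and 10 down in the sensitive line. The most abundant of them, LOC_Os03g02050, lies on chromosome 3 at 651993-652803 (minus strand; coordinates as the deposited table gives them, whose build the sources do not state). It stood at 1053, 1115 and 1087 CPM in tolerant stress, 705, 696 and 711 CPM in tolerant control, 1160, 1160 and 1111 CPM in sensitive stress, and 715, 676 and 699 CPM in sensitive control. All 6 stress libraries lay above all 6 control libraries. The log2 fold change was 0.62 ± 0.04 (SE) in the tolerant line (adjusted p = 5.93e-08) and 0.72 ± 0.04 in the sensitive line (adjusted p = 2.75e-08).

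LOC_Os11g02389 and LOC_Os12g02320, both described as lipid-transfer protein 1 and next in mean level, fell relative to the median gene. Other genes of that description did not all do so: LOC_Os01g60740 rose, and LOC_Os11g02400 (-0.06 in the tolerant and 0.05 in the sensitive line) and LOC_Os11g02424 (0.22 and 0.12) did not pass. LOC_Os11g02389 (chromosome 11, 703048-703960) had 696, 740 and 717 CPM in tolerant stress, 980, 978 and 1018 CPM in tolerant control, 813, 777 and 760 CPM in sensitive stress and 1021, 986 and 1017 CPM in sensitive control. LOC_Os12g02320 (chromosome 12, 737406-738176) had 290, 300.1 and 269 CPM in tolerant stress, 398, 412 and 404 CPM in tolerant control, 303, 299 and 274 CPM in sensitive stress and 397, 380 and 397 CPM in sensitive control. In both genes every stress library was below every control library. LOC_Os11g02389 fell by 0.47 ± 0.04 on the log2 scale in the tolerant line (adjusted p = 1.47e-06) and by 0.36 ± 0.04 in the sensitive line (adjusted p = 1.59e-05). The sensitive-line value was 0.05, with adjusted p = 0.559, when library totals alone were used. LOC_Os12g02320 fell by 0.50 ± 0.05 and 0.42 ± 0.05 in the tolerant and sensitive lines, and by library totals alone by 0.18 (adjusted p = 0.0965) and 0.01 (adjusted p = 0.966).

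LOC_Os11g24070 and LOC_Os05g40010, both of the lipid-transfer protein 1 type, also fell relative to the median gene, by less than that pair in the tolerant line. Their direction likewise rests on the scaling. LOC_Os11g24070 had 143, 138 and 140 CPM in tolerant stress, 174, 169 and 184 CPM in tolerant control, 182, 173 and 182 CPM in sensitive stress and between 191 and 214 CPM in sensitive control. Its log2 fold change was -0.32 ± 0.06 in the tolerant line and -0.17 ± 0.06 in the sensitive line (adjusted p = 0.0329), but with library totals alone -0.003 in the tolerant line and 0.25 in the sensitive line, the last with adjusted p = 0.0125. LOC_Os05g40010 had 75.0, 84.8 and 80.8 CPM in tolerant stress, 92.9, 87.8 and 105 CPM in tolerant control, 92.9, 89.8 and 86.9 CPM in sensitive stress and 119, 121 and 122 CPM in sensitive control. Its log2 fold change was -0.25 ± 0.07 in the tolerant line (adjusted p = 0.0181; 0.08 with library totals alone) and -0.43 ± 0.07 in the sensitive line (adjusted p = 0.000553; -0.01 with library totals alone). The tolerant-line call of LOC_Os05g40010 was also lost without tolerant control replicate 3 (adjusted p = 0.0819) or tolerant stress replicate 1 (adjusted p = 0.0799). The sensitive-line call of LOC_Os11g24070 was lost in 6 of the 12 fits without 1 library, with adjusted p up to 0.135 without sensitive control replicate 1.

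The larger rises came from secreted genes of low abundance. LOC_Os05g47730, a lipid-transfer protein 2 on chromosome 5 at 27345715-27346293, had 9.10, 9.51 and 9.55 CPM in tolerant stress, 1.30, 1.25 and 1.23 CPM in tolerant control, 2.86, 5.21 and 5.16 CPM in sensitive stress and 1.19, 1.04 and 1.36 CPM in sensitive control. Its neighbour of the same description, LOC_Os05g47700 (27330644-27331350), had 6.60, 7.17 and 5.52 CPM in tolerant stress, 1.63, 1.18 and 1.63 CPM in tolerant control, 3.24, 2.98 and 3.46 CPM in sensitive stress and 2.096, 1.86 and 1.43 CPM in sensitive control. For both genes the order of the groups was the same, with tolerant stress highest, then sensitive stress, then the control groups, which overlapped between the lines. LOC_Os05g47730 rose by 2.90 ± 0.23 on the log2 scale in the tolerant line (adjusted p = 6.85e-07) and by 1.88 ± 0.22 in the sensitive line (adjusted p = 3.02e-05). The difference between these responses was 1.02 ± 0.30 and did not pass (adjusted p = 0.114). LOC_Os05g47700 rose by 2.12 ± 0.20 in the tolerant line (adjusted p = 4.83e-06) and by 0.85 ± 0.20 in the sensitive line (adjusted p = 0.00578).

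LOC_Os01g60740 (lipid-transfer protein 1, chromosome 1 at 35129858-35130917) rose in both lines, to overlapping levels. It had 30.8, 29.2 and 27.5 CPM in tolerant stress, 8.47, 6.48 and 8.05 CPM in tolerant control, 26.8, 28.8 and 29.2 CPM in sensitive stress and 7.89, 9.56 and 8.76 CPM in sensitive control. The stress libraries overlapped between the lines, as did the control libraries, and no stress library came near a control library. The rise was 1.93 ± 0.11 (adjusted p = 4.75e-08) in the tolerant and 1.69 ± 0.11 (adjusted p = 2.05e-07) in the sensitive line, and the difference between these responses was 0.23 ± 0.16 (adjusted p = 0.564). LOC_Os08g03690, described as lipid-transfer protein A, had 7.68, 11.1 and 10.4 CPM in tolerant stress, 2.002, 2.29 and 3.67 CPM in tolerant control, 8.39, 8.18 and 7.87 CPM in sensitive stress and 3.79, 4.0 and 3.74 CPM in sensitive control. It rose by 1.87 ± 0.21 in the tolerant line (adjusted p = 2.01e-05) and by 1.08 ± 0.21 in the sensitive line (adjusted p = 0.00151). The difference between these responses was 0.79 ± 0.29 and did not pass (adjusted p = 0.222).

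Several secreted genes fell. LOC_Os03g59380, a lipid-transfer protein 1 gene on chromosome 3 (33798940-33799765), had 14.0, 14.9 and 12.9 CPM in tolerant stress, 20.8, 17.0 and 17.4 CPM in tolerant control, 21.9, 21.9 and 19.6 CPM in sensitive stress and 66.1, 66.9 and 76.1 CPM in sensitive control. Only the sensitive control libraries were high, and the other 3 groups lay together below 22 CPM. The gene fell by 1.72 ± 0.10 on the log2 scale in the sensitive line (adjusted p = 6.62e-08) and by 0.40 ± 0.10 in the tolerant line (adjusted p = 0.0072), the tolerant-line fall being 0.09 with library totals alone (adjusted p = 0.639). LOC_Os12g02330, also of the lipid-transfer protein 1 type, had 0.753, 0.597 and 0.863 CPM in tolerant stress, 1.65, 0.939 and 1.77 CPM in tolerant control, 0.596, 0.505 and 0.621 CPM in sensitive stress and 0.930, 2.14 and 1.65 CPM in sensitive control. It fell in the sensitive line by 1.45 ± 0.37 (adjusted p = 0.00903), and in the tolerant line, where the value was -0.97 ± 0.36, it did not pass (adjusted p = 0.0573). The difference between these responses was 0.48 ± 0.51 and did not pass (adjusted p = 0.765). LOC_Os05g06780, with no number in its description, had 0.725, 0.761 and 0.394 CPM in tolerant stress, 3.09, 2.57 and 2.85 CPM in tolerant control, 1.14, 0.832 and 0.828 CPM in sensitive stress and 1.85, 2.64 and 2.44 CPM in sensitive control. It fell by 2.18 ± 0.29 in the tolerant (adjusted p = 8.07e-05) and by 1.30 ± 0.28 in the sensitive line (adjusted p = 0.00347). The difference between these responses was -0.87 ± 0.40 and did not pass (adjusted p = 0.344).

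**Figure D3:**
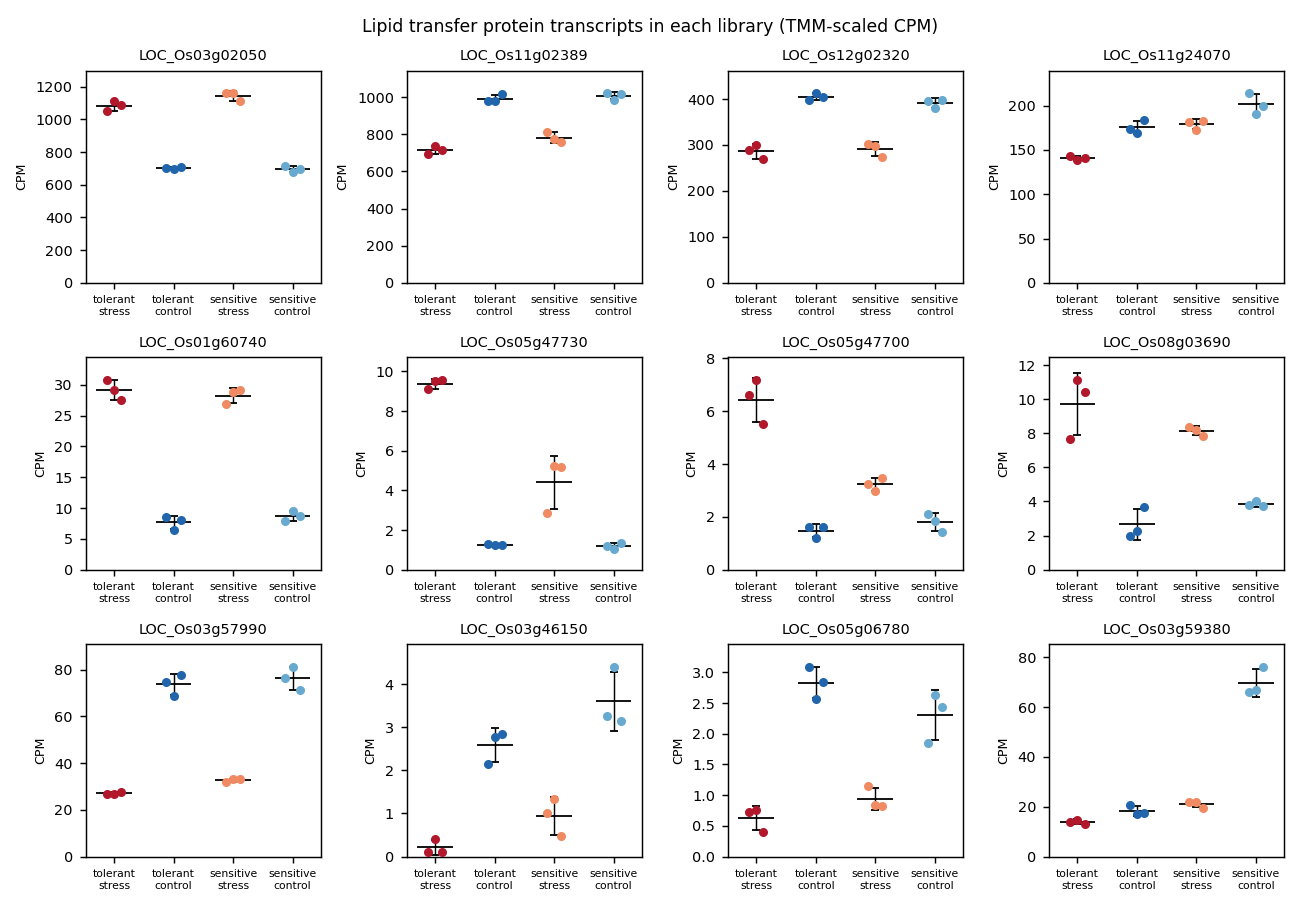
CPM of 12 lipid transfer protein genes in each library (points), with the mean and SD of each group of 3 (lines and bars); each panel has its own axis from 0. The top row holds the 4 most abundant genes, of which LOC_Os11g24070 and LOC_Os11g02389 change direction in the sensitive line with library totals alone. The second row holds genes that rose in both lines. The bottom row holds genes that fell in both, with sensitive control standing alone near 70 CPM for LOC_Os03g59380.

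Of 6 GPI-anchored genes tested, 3 fell, 1 rose and 2 did not pass in each line, and the same genes did so in both. LOC_Os03g57990, the most abundant of them (GPI-anchored 2, chromosome 3 at 33028009-33029181), had 26.8, 26.9 and 27.7 CPM in tolerant stress, 74.7, 68.8 and 77.7 CPM in tolerant control, 31.8, 33.1 and 33.0 CPM in sensitive stress and 76.6, 81.1 and 71.2 CPM in sensitive control. LOC_Os03g46150, also described as GPI-anchored 2, had 0.114, 0.404 and 0.113 CPM in tolerant stress, 2.15, 2.78 and 2.83 CPM in tolerant control, 1.006, 1.34 and 0.471 CPM in sensitive stress and 3.26, 4.39 and 3.13 CPM in sensitive control. In both genes stress and control libraries were apart in each line. LOC_Os03g57990 fell by 1.44 ± 0.07 on the log2 scale in the tolerant line (adjusted p = 8.87e-09) and by 1.23 ± 0.07 in the sensitive line (adjusted p = 5.15e-08). LOC_Os03g46150 fell by 3.61 ± 0.51 in the tolerant line (adjusted p = 0.000124) and by 1.94 ± 0.46 in the sensitive line (adjusted p = 0.00608), and its tolerant stress libraries held few counts. The difference between these responses was -1.68 ± 0.66 and did not pass (adjusted p = 0.253).

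LOC_Os03g57990 lies in a cluster of 3 family members on chromosome 3 (33022996-33029181), and all 3 fell in both lines. LOC_Os03g57970 (GPI-anchored 2) had 0.858, 1.002 and 0.788 CPM in tolerant stress, 1.36, 1.77 and 1.88 CPM in tolerant control, 0.928, 0.954 and 1.51 CPM in sensitive stress and 3.49, 2.86 and 3.10 CPM in sensitive control. It fell by 0.92 ± 0.25 in the tolerant line (adjusted p = 0.0139) and by 1.48 ± 0.25 in the sensitive line (adjusted p = 0.000679). LOC_Os03g57980, described as lipid-transfer protein 2, averaged 0.600 ± 0.166 CPM in tolerant stress against 1.55 ± 0.487 CPM in tolerant control, and 0.921 ± 0.380 CPM in sensitive stress against 2.13 ± 0.665 CPM in sensitive control. Its fall was 1.37 ± 0.39 in the tolerant (adjusted p = 0.0165) and 1.21 ± 0.39 in the sensitive line (adjusted p = 0.0302). With library totals alone LOC_Os03g57970 in the tolerant line (adjusted p = 0.095) and LOC_Os03g57980 in the tolerant (adjusted p = 0.0562) and sensitive lines (adjusted p = 0.144) no longer passed. The GPI-anchored gene that rose was LOC_Os08g42040 (GPI-anchored 1), with 14.8 ± 0.102 CPM in tolerant stress against 11.7 ± 0.752 CPM in tolerant control (log2 0.34, adjusted p = 0.0224), and 14.9 ± 0.526 CPM in sensitive stress against 11.1 ± 1.43 CPM in sensitive control (log2 0.43, adjusted p = 0.00683).

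Of the lipid transfer protein-like genes, 3 of 6 tested rose in each line and 1 fell in the sensitive line. LOC_Os03g26820 had 17.4, 17.4 and 18.7 CPM in tolerant stress, 5.28, 5.82 and 7.93 CPM in tolerant control, 16.4, 15.5 and 17.0 CPM in sensitive stress and 6.81, 9.53 and 6.68 CPM in sensitive control. It rose by 1.49 ± 0.17 in the tolerant line (adjusted p = 1.75e-05) and by 1.09 ± 0.17 in the sensitive line (adjusted p = 0.000257). LOC_Os06g10890, the most abundant of the class, had 46.4, 56.0 and 40.2 CPM in tolerant stress, 35.5, 39.3 and 32.0 CPM in tolerant control, 52.5, 45.3 and 52.9 CPM in sensitive stress and 31.6, 35.5 and 40.3 CPM in sensitive control. Its stress and control libraries were apart by little, and the rises were 0.42 ± 0.13 (adjusted p = 0.025) in the tolerant and 0.49 ± 0.13 (adjusted p = 0.0115) in the sensitive line. The tolerant call was lost without tolerant stress replicate 2 (0.28, adjusted p = 0.119), tolerant control replicate 1 (adjusted p = 0.0635) or tolerant control replicate 3 (adjusted p = 0.0953), and the sensitive call without sensitive control replicate 1 (adjusted p = 0.0507).

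LOC_Os07g43290, likewise lipid transfer protein-like, had 4.28, 4.78 and 4.27 CPM in tolerant stress, 2.62, 3.61 and 3.02 CPM in tolerant control, 5.06, 4.66 and 4.32 CPM in sensitive stress and 1.40, 2.81 and 1.63 CPM in sensitive control. It rose in the sensitive line by 1.27 ± 0.24 (adjusted p = 0.00135), and the tolerant-line value of 0.53 ± 0.23 did not pass (adjusted p = 0.108). The difference between the lines in this response was -0.74 ± 0.33 and did not pass either (adjusted p = 0.337). LOC_Os04g38840, described after the Arabidopsis gene At2g13820, rose in the tolerant line by 1.16 ± 0.32 (adjusted p = 0.0147), with 2.17 ± 0.626 CPM in tolerant stress against 0.972 ± 0.110 CPM in tolerant control. Its sensitive-line value was 0.38 (adjusted p = 0.413), and the difference between the responses was 0.78 ± 0.45 and did not pass (adjusted p = 0.489). LOC_Os07g07930, of the same description, was lower in sensitive stress (12.1 ± 0.660 CPM) than in sensitive control (15.9 ± 1.60 CPM), with log2 -0.39 (0.03 with library totals alone) and adjusted p = 0.0402.

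The other classes gave few calls. LOC_Os06g49190 was the only type 2P or probable gene of 6 tested that passed. It had 4.16 ± 0.386 CPM in tolerant stress against 1.73 ± 0.767 CPM in tolerant control (log2 1.27, adjusted p = 0.00883) and 4.29 ± 0.743 CPM in sensitive stress against 1.99 ± 0.568 CPM in sensitive control (log2 1.11, adjusted p = 0.0192). The 3 tested DIR1 genes, named after an Arabidopsis protein of long-distance defence signalling, did not pass in either line. LOC_Os04g55170, a pEARLI1-like gene, had 30, 15 and 36 counts in tolerant stress and none in tolerant control, and 80, 45 and 34 counts in sensitive stress and none in sensitive control. Set against a floor of 12 counts per library in the control groups, which stands for 3 fragments at an assumed 4 counts each, its level was at least 1.81-fold higher in tolerant stress and at least 3.23-fold higher in sensitive stress.

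LOC_Os06g49770, which has no number, was listed at 4.10, 2.29 and 2.34 CPM in tolerant stress, 0.584, 0.614 and 0.980 CPM in tolerant control, 3.31, 3.44 and 2.18 CPM in sensitive stress and 1.34, 0.577 and 1.63 CPM in sensitive control. Its log2 fold changes of 2.00 ± 0.40 (tolerant, adjusted p = 0.00176) and 1.33 ± 0.39 (sensitive, adjusted p = 0.019) belong to 1 of 2 rows under that name on the same strand. The other row averaged 719 counts against 193 counts for the described row, and with both rows summed the values were -0.10 and -0.07. The direction for this gene is therefore uncertain. Of the intracellular families, the glycolipid transfer protein 1 gene LOC_Os02g40890 had 14.1 ± 1.72 CPM in tolerant stress against 21.9 ± 2.79 CPM in tolerant control (log2 -0.63, adjusted p = 0.00103, and with library totals alone -0.32 and adjusted p = 0.0558). In the sensitive line it had 14.8 ± 0.461 CPM in sensitive stress against 28.03 ± 2.64 CPM in sensitive control (log2 -0.92, adjusted p = 5.95e-05). The StAR-related gene LOC_Os02g26860 fell in the sensitive line (log2 -0.57, adjusted p = 0.00208, and with library totals alone -0.15 and adjusted p = 0.425), with 11.01 ± 1.35 CPM in stress against 16.3 ± 1.46 CPM in control. Its tolerant-line value was -0.12 and the difference between the lines 0.44 (adjusted p = 0.206).

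Markers of grain tissues moved with the same contrast. The summed level of 5 endosperm markers was 6766 to 6906 CPM in tolerant stress against 19670 to 19860 CPM in tolerant control, and 6948 to 7056 CPM in sensitive stress against 18650 to 18820 CPM in sensitive control. Each of the 5 fell in both lines. The 3 embryo markers summed to 1838 to 1921 CPM in tolerant stress against 3410 to 3754 CPM in tolerant control, and 2266 to 2446 CPM in sensitive stress against 3391 to 3438 CPM in sensitive control. That sum is carried by the oleosins OLE16 and OLE18, which fell in both lines, while the embryo regulator VP1 did not pass (-0.12, adjusted p = 0.198, in the tolerant and 0.03, adjusted p = 0.762, in the sensitive line). The 4 green tissue markers summed to 289 to 302 CPM in tolerant stress against 441 to 462 CPM in tolerant control, and to 327 to 343 CPM in sensitive stress against 390 to 409 CPM in sensitive control. Of these, RCA fell in both lines (-1.08 tolerant and -0.59 sensitive), CAB2R rose in the tolerant line (0.47, adjusted p = 9.48e-05; 0.17 and adjusted p = 0.0544 in the sensitive line) and the RBCS gene LOC_Os12g17600 rose in the sensitive line (0.48, adjusted p = 0.00137; 0.15 and adjusted p = 0.246 in the tolerant line). The other RBCS gene, LOC_Os12g19470, did not pass in either line. All marker values are scaled with TMM factors and were not computed with library totals alone. Under that scaling the median of all tested loci lay at 0.37 in the tolerant and 0.46 in the sensitive line. The lower green sum and the falls of OLE16 (-0.58) and OLE18 (-0.52) in the sensitive line may therefore depend on the scaling. The 6 markers of tapetum and pollen wall were low, with a sum that was higher under stress. In the tolerant line it was 8.26 to 9.51 CPM in stress against 3.98 to 5.24 CPM in control. In the sensitive line it was 7.35 to 7.89 CPM in stress against 3.36 to 3.59 CPM in control. PTC1 rose in both lines (1.33, adjusted p = 0.0209, tolerant; 1.36, adjusted p = 0.0205, sensitive) and EAT1 in the sensitive line (1.39, adjusted p = 0.00183; 0.62 and adjusted p = 0.0968 in the tolerant line). CYP703A3 did not pass in either line (2.15, adjusted p = 0.237, in the tolerant and 1.955, adjusted p = 0.283, in the sensitive line). Nor did CYP704B2, at 1.16 (adjusted p = 0.0742) in the tolerant and -0.18 (adjusted p = 0.817) in the sensitive line. TDR had no count in any library and ABCG15 had none in 11 of 12. The part of tissue make-up in the changes of the lipid transfer protein genes was not tested, and in bulk RNA fewer cells of a type cannot be told apart from less RNA per cell.

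The lines were also compared directly. In control, 8 of the 53 tested genes were lower in the tolerant than in the sensitive line and none was higher (15.1% of the members, where 5.42% of all tested loci were called, 2.89% lower and 2.53% higher in the tolerant line). At an unadjusted p under 0.05, 16 members differed in either direction, and the share of all tested loci at that threshold was not computed. All 8 belonged to the numbered or lettered class, and the members' median was -0.28 beside 0.00 over all tested loci. LOC_Os03g59380 had the largest difference among genes above 1 CPM, -1.92 ± 0.10 (adjusted p = 2.12e-06), with tolerant control at 18.4 ± 2.07 CPM and sensitive control at 69.7 ± 5.60 CPM.

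Of the other 7 genes lower in tolerant control, 5 lie in a pair of neighbour clusters at 1 end of chromosomes 11 and 12. These clusters hold 5 genes on chromosome 11 (LOC_Os11g02350 to LOC_Os11g02424) and 6 on chromosome 12 (LOC_Os12g02290 to LOC_Os12g02340), all tested. They are part of a known, nearly identical duplication of those chromosome ends, so reads may have been divided between copies. LOC_Os11g02350 (lipid-transfer protein 3, 684611-685626) had 20.9, 22.7 and 22.1 CPM in tolerant stress, 4.97, 7.71 and 7.34 CPM in tolerant control, 29.4, 31.3 and 30.8 CPM in sensitive stress and 16.2, 18.0 and 18.1 CPM in sensitive control. LOC_Os12g02300 (lipid-transfer protein 3, 727800-728701) had 22.9, 19.95 and 19.6 CPM in tolerant stress, 4.39, 4.84 and 5.10 CPM in tolerant control, 28.1, 27.9 and 28.2 CPM in sensitive stress and 12.98, 10.7 and 10.2 CPM in sensitive control. In both genes the 4 groups did not overlap, with tolerant control lowest and sensitive stress highest.

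The tolerant over sensitive difference in control was -1.39 ± 0.14 for LOC_Os11g02350 (adjusted p = 0.000132) and -1.24 ± 0.11 for LOC_Os12g02300 (adjusted p = 6.94e-05). Under stress it was -0.48 ± 0.13 (adjusted p = 0.0797) and -0.43 ± 0.11 (adjusted p = 0.0472). The last call was lost in 10 of the 12 fits that left out 1 library, with adjusted p up to 0.176 without tolerant stress replicate 3. Both genes rose with stress in each line: LOC_Os11g02350 by 1.71 ± 0.14 (tolerant) and 0.81 ± 0.13 (sensitive), LOC_Os12g02300 by 2.12 ± 0.11 and 1.31 ± 0.11. LOC_Os11g02350 received 51.3% of the counts of the pair in tolerant stress, 57.9% in tolerant control, 52.1% in sensitive stress and 60.7% in sensitive control.

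The next genes of the clusters differed between the lines in control and did not pass the test under stress. LOC_Os11g02369 (lipid-transfer protein 2A, 693419-693864) had 76.8, 79.2 and 68.8 CPM in tolerant stress, 56.4, 51.8 and 59.5 CPM in tolerant control, 71.8, 71.3 and 64.5 CPM in sensitive stress and 93.0, 91.4 and 90.0 CPM in sensitive control. The tolerant over sensitive difference was -0.71 ± 0.07 in control (adjusted p = 0.00019) and 0.11 ± 0.07 under stress (adjusted p = 0.593). LOC_Os12g02310 (lipid-transfer protein 3, partial, 732978-734220) had 39.2, 40.4 and 38.3 CPM in tolerant stress, 36.0, 34.4 and 33.7 CPM in tolerant control, 35.0, 35.5 and 41.7 CPM in sensitive stress and 57.4, 54.8 and 44.9 CPM in sensitive control. Its difference was -0.59 ± 0.10 in control (adjusted p = 0.00374) and 0.07 ± 0.10 under stress (adjusted p = 0.877). LOC_Os12g02340 (lipid-transfer protein 3, 760919-762534) had 20.5, 18.5 and 15.8 CPM in tolerant stress, 14.2, 16.7 and 16.3 CPM in tolerant control, 21.7, 21.4 and 23.0 CPM in sensitive stress and 29.9, 25.3 and 23.6 CPM in sensitive control. It was lower in the tolerant line in control by 0.74 ± 0.12 (adjusted p = 0.00304).

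The most abundant pair of the clusters, LOC_Os11g02389 and LOC_Os12g02320, differed little between the lines in control (-0.02 ± 0.04 and 0.05 ± 0.05, adjusted p = 0.842 and 0.712). Over the 11 cluster genes the median tolerant over sensitive difference was -0.52 in control and -0.04 under stress, and over the other 42 tested members it was -0.28 and -0.07. The members outside the clusters that were lower in tolerant control were LOC_Os03g59380, LOC_Os05g40010 (-0.35 ± 0.07, adjusted p = 0.0148, and with library totals alone -0.24, adjusted p = 0.114) and LOC_Os10g36100, which is described with the other rare genes below.

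**Figure D4:**
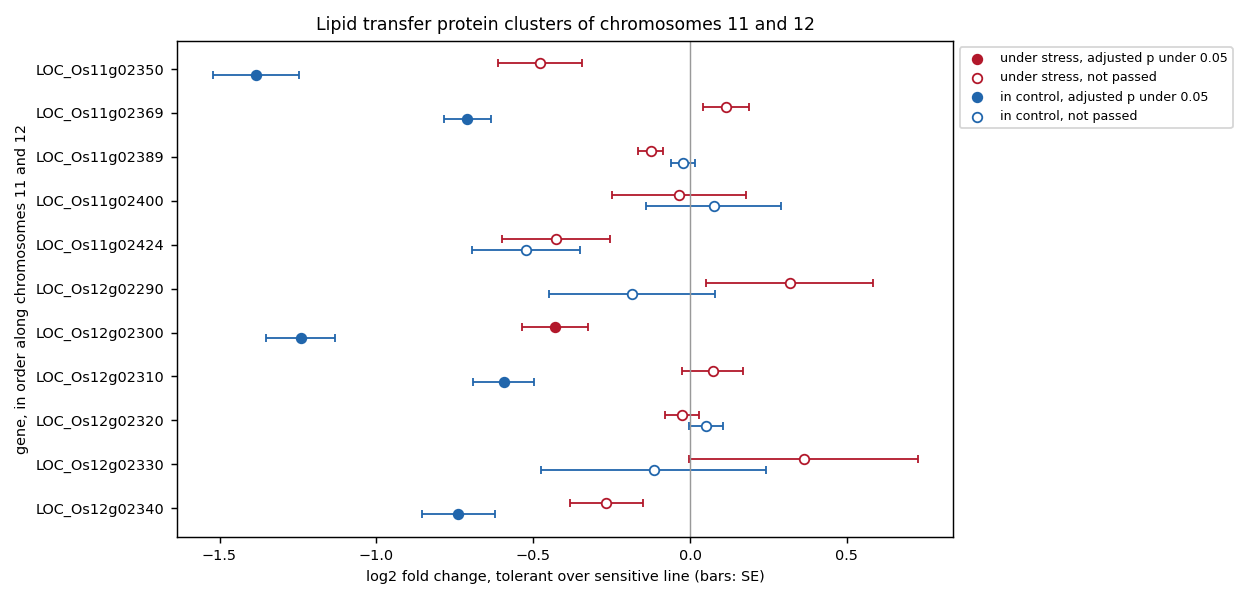
Log2 fold change of the tolerant over the sensitive line for the 11 lipid transfer protein genes of the chromosome 11 and 12 clusters, under stress (red) and in control (blue), with standard errors; filled points passed an adjusted p of 0.05. The 5 filled blue points lie between -1.39 and -0.59, and 1 filled red point, LOC_Os12g02300, lies at -0.43.

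Under stress the lines differed in fewer of these genes. In the tolerant line 2 were higher and 4 lower than in the sensitive line (11.3% of the members, where 3.4% of all tested loci were called, 1.71% higher and 1.69% lower). The higher pair were the chromosome 5 neighbours, LOC_Os05g47730 by 1.09 ± 0.21 (adjusted p = 0.0121) and LOC_Os05g47700 by 0.99 ± 0.20 (adjusted p = 0.0145). The call of LOC_Os05g47700 was lost in 4 fits without 1 library, with adjusted p up to 0.0697 without sensitive stress replicate 2. The lower genes were LOC_Os03g46150 by 2.15 ± 0.49 (adjusted p = 0.0333), LOC_Os03g59380 by 0.60 ± 0.10 (adjusted p = 0.00465), LOC_Os12g02300 and LOC_Os11g24070 by 0.35 ± 0.06 (adjusted p = 0.00363). The call of LOC_Os03g46150 was lost in 4 fits, with adjusted p up to 0.129 without tolerant stress replicate 1.

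A test of the difference between the stress responses asked whether the lines reacted unequally. It was passed by 7 of the 53 genes, all with the response of the tolerant line above that of the sensitive line, and all of the numbered or lettered class (13.2% of the members, where 2.61% of all tested loci were called, 1.27% in that direction and 1.34% in the other). All of the 7 but LOC_Os05g47700 were also among the 8 genes lower in tolerant control. Both comparisons use the same control libraries, so these results are not independent. In the duplicated chromosome 11 and 12 clusters lie 4 of the 7. Of the 7, 2 had counts in every group and differed by 2-fold or more (LOC_Os03g59380 and LOC_Os05g47700). LOC_Os10g36100 also passes 2-fold by its fitted value, but that rests on groups at 0. By fitted values 0.544% of all tested loci differed that much in that direction. At an unadjusted p under 0.05, 17 members differed in either direction, and the share of all tested loci at that threshold was not computed. The members' median was 0.25 beside -0.01 over all tested loci. The response of LOC_Os03g59380 differed by 1.32 ± 0.14 (adjusted p = 0.00026) and that of LOC_Os11g02369 by 0.82 ± 0.11 (adjusted p = 0.00107). LOC_Os11g02369 was higher in stress than in control in the tolerant line (0.42 ± 0.08, adjusted p = 0.000741) and lower in the sensitive line (-0.40 ± 0.07, adjusted p = 0.00116), the sensitive value being 0.02 with library totals alone. LOC_Os12g02300 differed by 0.81 ± 0.15 (adjusted p = 0.0125).

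The calls of LOC_Os05g47700 (1.27 ± 0.28, adjusted p = 0.0314), LOC_Os11g02350 (0.91 ± 0.19, adjusted p = 0.0232) and LOC_Os12g02310 (0.67 ± 0.14, adjusted p = 0.0216) were lost in 8, 7 and 7 of the 12 fits without 1 library. The adjusted p reached 0.0893 for LOC_Os05g47700 without tolerant stress replicate 2, 0.0665 for LOC_Os11g02350 and 0.0626 for LOC_Os12g02310, both without sensitive stress replicate 1. For LOC_Os12g02310 the sensitive line fell with stress (-0.49 ± 0.10, adjusted p = 0.00194; -0.07 with library totals alone, adjusted p = 0.667), and the tolerant line was at 0.18 ± 0.10 (adjusted p = 0.184). LOC_Os10g36100, described as lipid-transfer protein 2 and lying in a chromosome 10 cluster of 6 members with few or no counts, had 19, 4 and 19 counts in tolerant stress and none in tolerant control, and none in sensitive stress and 16, 29 and 53 counts in sensitive control. Against the floor of 12 counts per library it was at least 3.75-fold lower in sensitive stress than in sensitive control and at least 3.03-fold lower in tolerant than in sensitive control, and no fold can be given for the tolerant line. Its test of unequal response gave adjusted p = 0.016 on these low counts.

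A list chosen by description for wax and cutin, the lipid pathway next to this family, was counted in the same fits. The list is wider than that pathway. It holds 37 genes by the words ABC transporter G family and 16 by glycerol-3-phosphate acyltransferase. Among the latter is its most abundant gene, LOC_Os11g41900, a 1-acyl-sn-glycerol-3-phosphate acyltransferase. The counts are therefore not those of wax and cutin genes alone. Of 127 listed genes 106 were tested. In all, 22 rose, 29 fell and 55 did not pass in the tolerant line, and 16 rose, 23 fell and 67 did not pass in the sensitive line (48.1% and 36.8% called, where 33.2% and 32.1% of all tested loci were). Their median log2 fold change was -0.12 in the tolerant and 0.01 in the sensitive line. Within the list, 7 of 15 tested 3-ketoacyl-CoA synthases, the condensing enzymes of very-long-chain fatty acid elongation, rose in the tolerant line and 4 in the sensitive line, and 2 fell in each. All 4 PASTICCINO-named genes that passed, of 6 tested, fell in both lines; the name stands for part of the same elongase complex in Arabidopsis.

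LOC_Os02g45530, described as HOTHEAD after an Arabidopsis oxidoreductase of cutin formation, had 537, 483 and 646 counts in tolerant stress and none in tolerant control, at least 37.4-fold higher against the floor. In the sensitive line it had 446, 389 and 340 counts in stress against 0, 8 and 0 counts in control. The 3-ketoacyl-CoA synthase LOC_Os10g33370 rose by 2.33 ± 0.31 in the tolerant line (adjusted p = 8.3e-05) and by 2.05 ± 0.31 in the sensitive line, and the G family ABC transporter LOC_Os03g17370 by 2.14 ± 0.37 (adjusted p = 0.000582) and 1.45 ± 0.35. The cytochrome P450 86 gene LOC_Os01g63540, of the family that hydroxylates fatty acids for cutin and suberin, fell by 2.37 ± 0.43 in the tolerant and 2.21 ± 0.43 in the sensitive line (adjusted p = 0.000866 and 0.00161). The G family ABC transporter LOC_Os08g07010 fell by 1.71 ± 0.18 and 2.21 ± 0.18, and the 3-ketoacyl-CoA synthase LOC_Os06g15170 by 1.34 ± 0.28 and 2.15 ± 0.30, in the tolerant and the sensitive line.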

How the data were processed

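RNA was depleted of ribosomal RNA and sequenced as paired reads of 150 bases, per the labels' protocols. The authors deposited whole-number counts per locus and, for the same loci, values the file headers name FPKM. The submitters' processing notes list HISAT2 2.2.1, StringTie 2.1.6, cutadapt 1.9, edgeR and DESeq2. They also name mouse build mm10, although identifiers are rice MSU loci, so the coordinate build is unknown here. Of the counts between 1 and 20, 37.6% to 40.8% per library were multiples of 4. A single fragment may thus have given several counts, which makes low counts less precise than they look. The library kit marks strand, but whether counting used it is not stated; 4 of the 6 further rows that share a member's name lie on the opposite strand.

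Loci were kept with filterByExpr (33281 of 50708), scaled with TMM factors and fitted as 4 group means in 1 model with 8 residual degrees of freedom (R 4.3.3, edgeR 4.0.16). Comparisons were two-sided glmQLFTest with Benjamini-Hochberg adjustment over all tested loci, called under 0.05. Standard errors are the size of the log2 fold change divided by the square root of F. Per-library values are given for the 10 members of highest mean CPM, for up to 10 called members of largest change per stress comparison and for up to 6 per comparison of the lines, with a mean of at least 1 CPM. The other called members are named to account for all, and up to 4 genes of the wax and cutin list are named per stress comparison. The members, lists and rules were chosen with earlier results of these data known. Alternatives were RLE size factors, library totals, no filter, DESeq2 1.42.0, a replicate block, limma 3.58.1 on log2(FPKM + 1) and log2(FPKM + 0.1), summed rows, a 2-fold minimum, each library left out and, added after seeing the data, library totals without the 5 most abundant loci. The edgeR steps were checked on simulated counts. The simulation altered few loci in a single group, so it could not test how the scaling handles the shift between stress and control libraries. Small RNA data were not analysed here, and no sequences were printed. Replicates of a group differed with a chi-square of 13.2 to 173 per degree of freedom, and no pair was identical.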

Additional observations from a re-analysis of the deposited data

Results flagged for a closer look

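The stress response differed between the lines, by the test of that difference (tolerant minus sensitive line, log2), in 7 lipid transfer protein genes. It was 1.32 for LOC_Os03g59380, 1.27 for LOC_Os05g47700, 0.91 for LOC_Os11g02350, 0.82 for LOC_Os11g02369, 0.81 for LOC_Os12g02300 and 0.67 for LOC_Os12g02310. LOC_Os10g36100 had a fitted value of 14.96, which rests on a group at 0 in each line and is no measure of size. Groups of 3 libraries were not examined for single outlying libraries.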

How the results depend on the processing

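Counts of members that fell with stress depended on the scaling and unit. In the tolerant line, where 11 fell, the count was 3 with library totals alone, 5 and 6 with limma on FPKM at pseudocounts of 1 and 0.1, 7 with library totals without the 5 most abundant loci (added after seeing the data) and 4 at 2-fold or more. In the sensitive line, where 17 fell, the same settings gave 8, 7, 8, 8 and 8. By fitted values of 2-fold or more, which for LOC_Os04g55170 and LOC_Os10g36100 rest on groups at 0, 9 rose in the sensitive line, 4 were lower in tolerant control, 1 was higher and 1 lower in tolerant stress, and 3 differed in response. In the same order, 8.48%, 0.526%, 0.46%, 0.246% and 0.544% of all tested loci did so. DESeq2 called 17 up and 11 down (tolerant), 16 up and 18 down (sensitive), 0 higher and 10 lower (lines in control), 2 higher and 6 lower (lines under stress) and 7 and 0 (difference of responses). It also called more of all 33281 tested loci. In the same order these were 12228, 11935, 3018, 1971 and 1752 loci, against 11059, 10695, 1804, 1132 and 867 with edgeR.

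Leaving out 1 library at a time, 13 to 17 rose and 9 to 14 fell in the tolerant line, 12 to 14 rose and 14 to 18 fell in the sensitive line, 0 to 1 were higher and 6 to 9 lower in tolerant control, 1 to 2 higher and 2 to 4 lower in tolerant stress, and 4 to 7 and 0 to 1 differed in response. No label says that replicate numbers pair the libraries. Same-number deviations correlated between -0.0123 and 0.0287, and those of different numbers between -0.0242 and 0.02. For 6 of 12 libraries the best correlation was with a library of their own number. These values do not settle whether the libraries were paired. With the replicate block 4 of 7 differences in response passed, and the counts of the other comparisons stayed within 1.5 times.

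Single members turned sign as follows. In the sensitive line LOC_Os11g02389 was 0.053 with library totals alone and 0.05 and 0.051 on FPKM at pseudocounts of 1 and 0.1. LOC_Os11g24070 was 0.246 with library totals alone, 0.244 and 0.246 on FPKM and 0.123 without the 5 most abundant loci, and LOC_Os11g02369 was 0.015 with library totals alone and 0.011 at both pseudocounts. In the tolerant line LOC_Os11g24070 was 0.011 and 0.012 on FPKM, and LOC_Os05g40010 was 0.077 with library totals alone, 0.087 and 0.088 on FPKM and 0.075 without the 5 most abundant loci. LOC_Os06g49770 was -0.104 (tolerant) and -0.074 (sensitive) with its rows summed. Of 1197 alternative values of named members, 1087 kept direction and side of the threshold, 88 lost the call, 4 gained it and 18 turned sign; the cause was not tested. Low counts limit members under 1 CPM.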
